A study of Mus musculus with 2 samples.

Results

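The genes described here are 32 genes of sterol and fatty acid synthesis, chosen by name, and 29 of them were measured among the 17305 genes of the array table. They comprise 16 measured enzymes of cholesterol synthesis, 6 genes of sterol sensing and sterol transfer, and 7 enzymes of fatty acid synthesis. Acat2, Soat1 and Soat2 were not analysed here. Each gene stands for its brightest probe set among those that the platform annotation gives exactly 1 gene symbol.

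Levels were measured on 2 single-channel arrays, 1 per group. The graft was small intestinal epithelium of EGFP-transgenic mice on a C57BL6 background, which had been cultured as organoids for 7 days, instilled into the colonic lumen of C57BL6 recipients and collected after 4 weeks. The control was normal colonic epithelium of a C57BL6 mouse that carried no graft. Both epithelia were laser-microdissected from serial sections that were combined for each specimen, and 4.33 ng of total RNA was amplified from each. The specimen with the highest RNA integrity of each group was used, and ages and the promoter driving EGFP were not among the labels. No ungrafted small intestine was analysed here, so tissue of origin and grafting cannot be told apart.

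Cells build cholesterol from acetyl-CoA through mevalonate, isoprenoid units, squalene and lanosterol, and they build fatty acids from the same acetyl-CoA through malonyl-CoA. When membrane sterol is low, Scap carries the transcription factors SREBP2 (Srebf2) and SREBP1 (Srebf1) out of the endoplasmic reticulum for cleavage, and when sterol is high, Insig proteins hold them back. SREBP2 mainly drives genes of sterol synthesis and uptake, and the SREBP1c form mainly drives genes of fatty acid synthesis. Enterocytes of the small intestine also take up dietary sterol and fatty acids and export them in chylomicrons.

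All values are log2 levels as deposited, and every difference is the graft value minus the colon value. With 1 array per group no difference has a replicate check and no p-value can be given. The only error in the table is the disagreement between different probe sets of 1 gene, whose differences varied with an SD of 0.48 on the log2 scale over 586 genes, and this leaves out variation between animals. All 29 measured members reached the median gene level of 5.48 on at least 1 array, as did 9392 genes in all, so shares of those 9392 genes are given beside the shares of all 17305. Of 8 general epithelial markers, all reached that level on both arrays, with levels from 6.32 to 11.98 in the graft and from 6.49 to 11.74 in the colon. The 9 enterocyte markers lay between 8.60 and 11.09 in the graft and between 4.52 and 8.09 in the colon, and the 7 colonocyte markers lay between 4.51 and 10.44 in the graft and between 8.55 and 11.74 in the colon. The labelled tissues thus carried their markers, and the makeup of absorptive cells differed between the samples along with every difference below. The part of that makeup in the differences was not tested, and in such bulk samples fewer cells of a type and less RNA per cell cannot be told apart.

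A run of neighbouring enzymes in the sterol pathway was moderately higher in the graft. Of the 16 sterol synthesis enzymes, 8 lay at least 1.5-fold above the colon and 0 lay 1.5-fold below it. Among all genes 4.8% were 1.5-fold higher and 8.17% lower, and among the genes that reached the median level these shares were 8.42% and 14.6%. The median difference of the 16 enzymes was 0.55, against 0.00 for all genes and -0.05 for the genes that reached the median level. In the graft, 14 of the 16 were above their colon level, whereas 43.5% of all genes and 41.6% of those reaching the median level were. At 2-fold, 1 of the 16 was higher and 0 were lower, and 1.93% and 3.09% of all genes passed in these directions (3.55% and 5.68% of those reaching the median level).

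**Figure D1:**
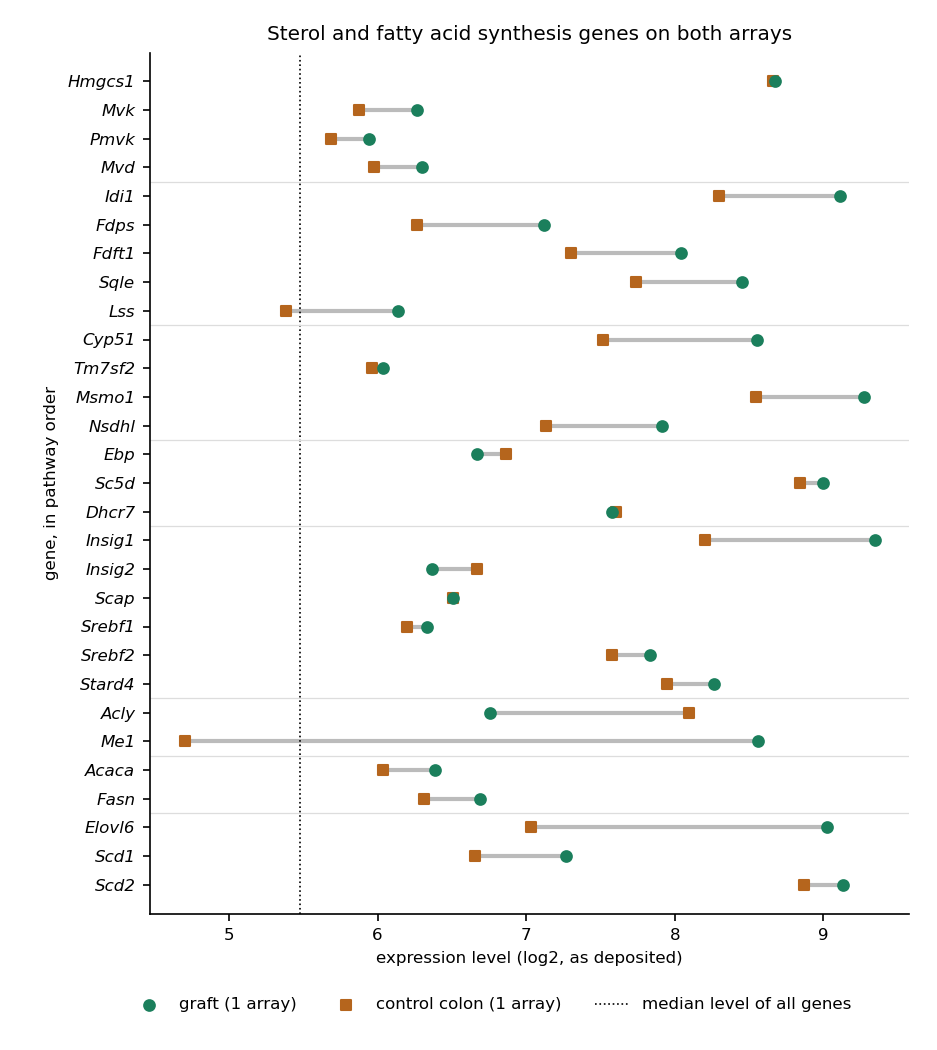
Levels of the 29 measured genes on the graft array (circles) and the control colon array (squares), on the log2 scale as deposited, in pathway order from top to bottom, with grey lines between groups of steps and a dotted line at the median level of all genes, 5.48. Most circles lie to the right of their squares; Acly lies far to the left, and the colon level of Me1, 4.70, lies below the dotted line.

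The opening steps make mevalonate and turn it into the isoprenoid unit isopentenyl diphosphate, and their genes were close to equal on both arrays. Hmgcs1, which condenses acetyl-CoA units into HMG-CoA, was at 8.67 in the graft against 8.66 in the colon, a difference of 0.01. The mevalonate kinase gene Mvk was at 6.26 against 5.88, a difference of 0.39. Pmvk, the kinase that adds the next phosphate, was at 5.94 against 5.69, and the decarboxylase gene Mvd was at 6.30 against 5.97. All 4 differences were smaller than the SD between probe sets.

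From isopentenyl diphosphate to lanosterol all 5 enzymes were higher in the graft, by between 0.71 and 0.85 on their brightest probe sets. The isomerase gene Idi1 was at 9.11 in the graft against 8.30 in the colon, a 1.76-fold difference, and its second probe set had a difference of 0.77. Fdps, which joins isoprenoid units into farnesyl diphosphate, was at 7.12 against 6.27, a 1.81-fold difference. Fdft1, the squalene synthase that commits farnesyl diphosphate to sterols, was at 8.04 against 7.30, and its second probe set had a larger difference, 1.07. The oxygen-dependent step is that of squalene epoxidase. Its gene Sqle was at 8.45 against 7.74, and the lanosterol synthase gene Lss was at 6.14 against 5.39. The SD of the 5 differences among the genes was 0.06, well under the 0.48 between probe sets, so their order is not determined.

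After lanosterol, methyl groups are removed from the sterol ring, and 3 of the 4 genes of these steps were in the same range. Cyp51, the lanosterol demethylase, was at 8.55 in the graft against 7.51 in the colon and was the only sterol enzyme whose brightest probe set passed 2-fold, at 2.06-fold. Msmo1, the methyl sterol oxidase, was at 9.27 against 8.55, a difference of 0.73. Nsdhl, the decarboxylating dehydrogenase that acts after it, was at 7.92 against 7.14, a difference of 0.78. Tm7sf2, a sterol reductase acting between Cyp51 and Msmo1, was at 6.04 against 5.96, a difference of 0.08. The other reductase of that step, Lbr, which is also a nuclear envelope protein and was picked here after its value was seen, was at 7.08 against 6.82.

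The last steps rearrange double bonds to give cholesterol, and none of their 3 genes differed by 1.5-fold. Ebp, the sterol isomerase, was at 6.67 in the graft against 6.86 in the colon, a difference of -0.20. The desaturase gene Sc5d was at 8.99 against 8.84. The reductase gene Dhcr7 was at 7.58 against 7.60, a difference of -0.02 that turned to 0.11 under quantile normalization. Ordered by pathway, the 8 genes that differed by at least 1.5-fold form a run from Idi1 to Nsdhl that only Tm7sf2 interrupts. They lay between 0.71 and 1.04, while the remaining 8 lay between -0.20 and 0.39, so no sterol enzyme lay between 0.39 and 0.71, and the 1.5-fold threshold is 0.58. The grouping into steps follows textbook order, and it was made after the values were seen.

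**Figure D2:**
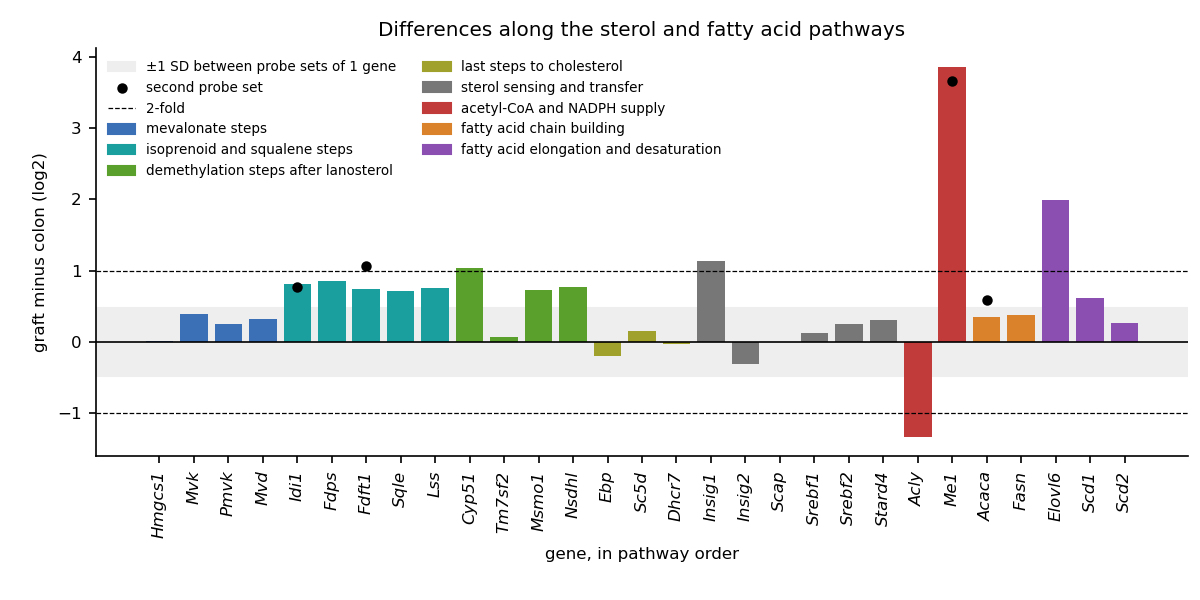
Graft minus colon differences (log2) of the 29 measured genes in pathway order, coloured by group of steps, with black points for the second probe set of 4 genes, a grey band of 1 SD between probe sets (0.48) on either side of 0 and dashed lines at 2-fold. The bars from Idi1 to Nsdhl stand above the band except for Tm7sf2, and the bars of Me1, Elovl6 and Acly extend beyond 2-fold.

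Other genes of sterol and isoprenoid synthesis were also listed. Their median difference was 0.30, and of 8 measured, 1 passed 1.5-fold upward in the graft and 0 downward. Over all genes these shares were 4.8% and 8.17%, and among genes reaching the median level 8.42% and 14.6%. Hsd17b7, the ketosteroid reductase that works with Msmo1 and Nsdhl in removing the ring methyl groups, was at 6.94 in the graft against 6.17 in the colon, a difference of 0.77. Erg28, a scaffold of the same enzyme complex, was at 8.95 against 8.48, a difference of 0.48. Cyb5r3, which supplies electrons through cytochrome b5, was at 7.76 against 7.33. The differences of Hsd17b7, Msmo1 and Nsdhl thus lay between 0.73 and 0.78, while those of Erg28 and Cyb5r3 were smaller, at 0.48 and 0.43.

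Among the genes of sterol sensing, Insig1 stood alone past 1.5-fold. The 6 measured genes had a median difference of 0.19, and 0 lay 1.5-fold below the colon. Over all genes, 4.8% were 1.5-fold higher and 8.17% were lower, and among genes reaching the median level 8.42% and 14.6%. Insig1, an endoplasmic reticulum anchor that is itself a target of SREBP, was at 9.35 in the graft against 8.21 in the colon, a 2.21-fold difference. Its relative Insig2 had the opposite sign, at 6.37 against 6.67, a difference of -0.30 that is smaller than the SD between probe sets. Srebf2 was at 7.83 against 7.58 and Srebf1 at 6.33 against 6.20. The escort gene Scap had exactly the same value on both arrays, 6.51, as did 12.1% of all probe sets, and the labels do not say how such identical values arose. Stard4, a soluble carrier that moves cholesterol between membranes, was at 8.26 against 7.95. Transcript levels of Scap and the Srebf genes say nothing about the cleavage of their proteins.

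SREBP processing and the sterol-regulated turnover of the reductase that makes mevalonate were followed through 8 further genes. Their median difference was 0.00, with 1 gene at least 1.5-fold higher and 1 lower, against 4.8% and 8.17% of all genes. Of genes reaching the median level, 8.42% and 14.6% passed in these directions. Erlin1, part of an endoplasmic reticulum complex for protein degradation, was at 5.71 in the graft against 7.04 in the colon, a 2.52-fold lower level. Its partner Erlin2 was at 6.99 against 7.36, a difference of -0.37. Sec24d, a coat subunit of vesicles that leave the endoplasmic reticulum, was at 7.51 against 6.52, a difference of 0.99.

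Promoter sequence is shown for the members at least 2-fold apart that have an entry in the RefSeq promoter table (GRCm38.p6), and for Hmgcs1, the textbook SREBP target that was level on both arrays. Each line gives the 250 bases before the annotated start, 5′ to 3′ on the gene's own strand. Me1 alone among them has more than 1 start in that table, and its upstream start was taken. The other window of Me1 holds 1 NF-Y box and 0 Sp1 boxes. Capitals mark matches, on either strand, to the SREBP response element core CACNCCAC, the NF-Y box CCAAT, the Sp1 box GGGCGG and the E-box CACGTG. No matches overlapped in these windows. Coordinates are chr13:119690101-119690350, plus strand, for Hmgcs1; chr5:4104698-4104947, minus strand, for Cyp51; and chr5:28071162-28071411, plus strand, for Insig1. Those of the fatty acid genes are chr11:100528001-100528250, minus strand, for Acly; chr3:129532136-129532385, plus strand, for Elovl6; and chr9:86695915-86696164, minus strand, for Me1.
Hmgcs1: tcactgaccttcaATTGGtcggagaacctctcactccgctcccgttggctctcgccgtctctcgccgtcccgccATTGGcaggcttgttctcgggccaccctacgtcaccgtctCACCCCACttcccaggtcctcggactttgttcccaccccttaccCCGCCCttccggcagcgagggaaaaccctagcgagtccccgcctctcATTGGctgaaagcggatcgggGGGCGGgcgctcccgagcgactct
Cyp51: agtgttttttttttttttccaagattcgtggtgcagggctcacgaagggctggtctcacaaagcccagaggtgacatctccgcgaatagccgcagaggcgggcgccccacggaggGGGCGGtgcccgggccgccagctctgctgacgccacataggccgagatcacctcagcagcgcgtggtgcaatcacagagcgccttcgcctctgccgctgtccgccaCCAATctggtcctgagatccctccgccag
Insig1: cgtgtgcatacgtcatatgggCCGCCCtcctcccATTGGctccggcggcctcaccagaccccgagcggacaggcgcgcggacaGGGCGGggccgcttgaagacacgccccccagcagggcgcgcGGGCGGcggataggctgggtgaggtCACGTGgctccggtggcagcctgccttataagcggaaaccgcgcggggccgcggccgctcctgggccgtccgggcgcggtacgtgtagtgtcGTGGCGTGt
Acly: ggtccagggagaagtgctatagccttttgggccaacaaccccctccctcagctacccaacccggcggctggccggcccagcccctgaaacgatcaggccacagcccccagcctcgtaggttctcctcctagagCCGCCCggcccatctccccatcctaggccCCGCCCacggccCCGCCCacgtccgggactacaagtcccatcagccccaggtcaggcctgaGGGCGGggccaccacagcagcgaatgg
Elovl6: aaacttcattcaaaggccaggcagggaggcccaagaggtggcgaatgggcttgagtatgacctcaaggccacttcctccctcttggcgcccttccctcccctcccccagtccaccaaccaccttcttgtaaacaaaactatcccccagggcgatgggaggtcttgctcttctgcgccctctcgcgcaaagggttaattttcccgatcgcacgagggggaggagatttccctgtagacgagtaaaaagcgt
Me1: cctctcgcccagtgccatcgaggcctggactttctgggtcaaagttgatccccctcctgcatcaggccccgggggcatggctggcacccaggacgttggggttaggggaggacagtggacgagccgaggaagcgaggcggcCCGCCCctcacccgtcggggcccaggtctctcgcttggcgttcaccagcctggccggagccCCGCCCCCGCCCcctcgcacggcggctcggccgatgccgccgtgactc

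Of the 29 measured members, 23 had an entry, with 32 start windows in all, and Fdps, Fdft1, Sqle, Stard4, Scd1 and Scd2 had none. The NF-Y box was in 13 of 16 windows of 13 sterol enzymes, in 2 of 6 windows of fatty acid enzymes and in 33.8% of all 32851 windows. The Sp1 box was in 13 of 16 windows of sterol enzymes, in 2 of 6 windows of fatty acid enzymes and in 32.7% of all windows. The SREBP core was in 1 of the 16 windows, that of Hmgcs1, in 0 of the 6 windows of fatty acid enzymes and in 5.29% of all windows, and among the sensing genes the shown window of Insig1 held it. The E-box was in 2 of the 16 windows, in 0 of the 6 and in 6.02% of all, and Insig1 held 1. Windows of 1 gene can overlap and are not independent. The 32851 windows cover 27025 genes whatever their level on these arrays, whereas all measured members reached the median level. Shares among windows of genes reaching that level were not computed. In the lines above, Hmgcs1 holds 3 NF-Y boxes and a difference of 0.01, while Elovl6 holds no match and a difference of 1.99. Insig1 holds 1 NF-Y box and 3 Sp1 boxes besides its core and E-box, with a difference of 1.14. Cyp51 holds 1 NF-Y box and 1 Sp1 box, with a difference of 1.04. Acly holds 4 Sp1 boxes and the shown window of Me1 3, with differences of -1.34 and 3.86. A relation between matches and differences was not tested. Presence of these letters is a description of sequence and not of binding. Only exact matches to the listed letters were sought, so absence of a match does not show that a window lacks an SREBP element.

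Fatty acid synthesis genes differed from each other far more than the sterol genes did. Of the 7 enzymes, 3 passed 1.5-fold upward in the graft and 1 downward, against 4.8% and 8.17% of all genes. Among genes reaching the median level these shares were 8.42% and 14.6%. At 2-fold, 2 were higher and 1 was lower, against 1.93% and 3.09% of all genes. Of those reaching the median level, 3.55% and 5.68% passed in these directions. At 4-fold, 1 was higher and 0 were lower, against 0.595% and 0.745% of all genes and 1.1% and 1.37% of those reaching the median level. The median difference was 0.38, and the differences ran from -1.34 to 3.86 with an SD of 1.63 over the 7 genes. For the 16 sterol enzymes they ran from -0.20 to 1.04 with an SD of 0.38.

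Me1 and Acly, which supply reducing power and carbon to the pathway, differed in opposite directions. Me1, the cytosolic malic enzyme that makes NADPH, was at 8.56 in the graft against 4.70 in the colon, a 14.5-fold difference. Its second probe set, at 8.31 against 4.65, had a difference of 3.66. The colon level lay below that array's 20th percentile of 4.77, where signal cannot be separated from background, so the size of the fold is not determined. Acly, which splits exported citrate into cytosolic acetyl-CoA for both fatty acids and sterols, was at 6.76 in the graft against 8.09 in the colon, a 2.53-fold lower level. It was the only member at least 1.5-fold lower in the graft.

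Chain building itself differed little. Acaca, the acetyl-CoA carboxylase that makes malonyl-CoA, was at 6.39 in the graft against 6.03 in the colon, a difference of 0.35, and its second probe set had a difference of 0.59. Fasn, the synthase that assembles palmitate, was at 6.69 against 6.32, a difference of 0.38. Both were smaller than the SD between probe sets for the brightest probe set.

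Modification of the finished chain showed the next largest difference after Me1. Elovl6, which lengthens palmitate to stearate, was at 9.03 in the graft against 7.04 in the colon, a 3.98-fold difference. Scd1, the stearoyl-CoA desaturase that makes oleate, was at 7.27 against 6.66, a 1.53-fold difference that lies just past the 1.5-fold threshold. Its paralogue Scd2 was at 9.14 against 8.87, a difference of 0.26. The desaturases are closely related in sequence, so each value is uncertain as that of a single gene.

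**Figure D3:**
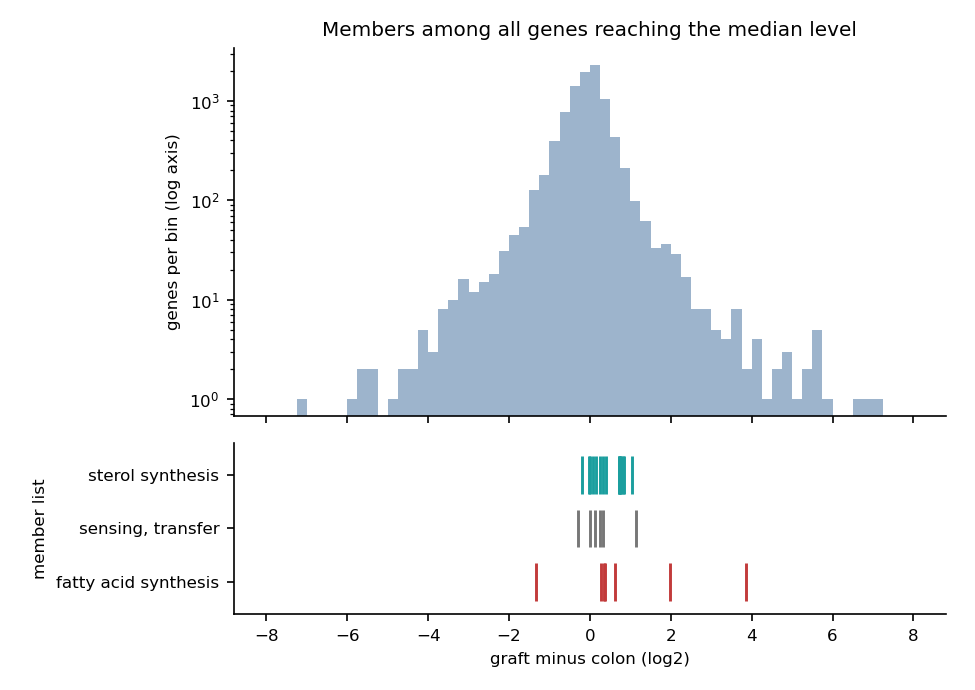
Top, number of genes per 0.25-wide bin of graft minus colon difference (log2), for the 9392 genes that reached the median level, on a log axis; bottom, each member of the 3 lists as a tick on the same scale. Sterol synthesis ticks sit between -0.20 and 1.04, and fatty acid synthesis ticks spread from -1.34 for Acly to 3.86 for Me1.

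Wider lists of fatty acid genes had medians near 0 with a few large differences. Of 17 measured genes for fatty acid synthesis, elongation and desaturation beyond the members, 1 was at least 2-fold higher and 1 was 2-fold lower. At 1.5-fold these counts were 1 and 2. Over all genes, 1.93% and 3.09% passed 2-fold in these directions, and 4.8% and 8.17% passed 1.5-fold. Of genes reaching the median level, 3.55% and 5.68% passed 2-fold, and 8.42% and 14.6% passed 1.5-fold. The median difference was 0.02. Fads1, the delta-5 desaturase of polyunsaturated fatty acids, was at 8.10 in the graft against 6.19 in the colon, a 3.76-fold difference. Oxsm, the condensing enzyme of mitochondrial fatty acid synthesis, was at 5.18 against 6.46, a 2.42-fold lower level. The elongase gene Elovl7 was at 8.13 against 8.87, a difference of -0.74. Acss2, which makes acetyl-CoA from acetate and was picked after its value was seen, was at 6.71 against 7.24, a difference of -0.53, on the same side of 0 as Acly.

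Lipogenic regulators and NADPH suppliers gave a median of -0.09 over 15 genes, of which 9 lay below 0. At 1.5-fold 3 passed upward and 3 downward, against 4.8% and 8.17% of all genes. At 2-fold 3 passed upward and 0 downward, against 1.93% and 3.09% of all genes. All 15 reached the median level. Among genes reaching it the shares were 8.42% and 14.6% at 1.5-fold, and 3.55% and 5.68% at 2-fold. Lpin1, the phosphatidate phosphatase of triglyceride synthesis, was at 6.57 in the graft against 4.90 in the colon, a 3.19-fold difference. Mlxipl, which encodes the carbohydrate-responsive factor ChREBP, was at 6.87 against 5.73, a 2.20-fold difference. Its dimer partner gene Mlx, picked after its value was seen, was at 7.18 against 8.14, a difference of -0.96. The other genes 1.5-fold lower, named for the same reason, were those of the widely expressed transcription factors Sp1 and Usf1, with differences of -0.92 and -0.71. Pgd, the NADPH-producing enzyme of the pentose phosphate pathway, was at 8.66 against 7.60, a 2.09-fold difference in the same direction as that of Me1. The isocitrate dehydrogenase gene Idh1, also an NADPH source and also picked after its value was seen, had a difference of -0.38.

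Sterol uptake and transport beyond synthesis turned on a single gene. The 14 measured genes had a median difference of 0.00. Of them, 1 passed 2-fold upward in the graft and 0 downward, against 1.93% and 3.09% of all genes. At 1.5-fold the counts were 1 and 1, against 4.8% and 8.17% of all genes. For genes reaching the median level the shares were 3.55% and 5.68% at 2-fold, and 8.42% and 14.6% at 1.5-fold. Npc1l1, the brush-border transporter of dietary sterol, was at 9.02 in the graft against 5.002 in the colon, a difference of 4.01, and it is also one of the enterocyte markers. Mylip, a ligase that sends lipoprotein receptors for degradation, was at 5.45 against 6.10, a difference of -0.65. Npc2, which hands cholesterol out of lysosomes, was at 8.97 against 9.50, a difference of -0.53. Sterol efflux and liver X receptor genes had a median of 0.11 over 6 genes. Among these, 1 passed 1.5-fold upward and 0 downward, against the same shares of all genes and of genes reaching the median level. Abcg8, a subunit of the exporter that returns sterol to the lumen, was at 6.13 against 5.33, a difference of 0.80, while Apoe and the liver X receptor gene Nr1h3 had differences of -0.53 and -0.46.

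**Figure D4:**
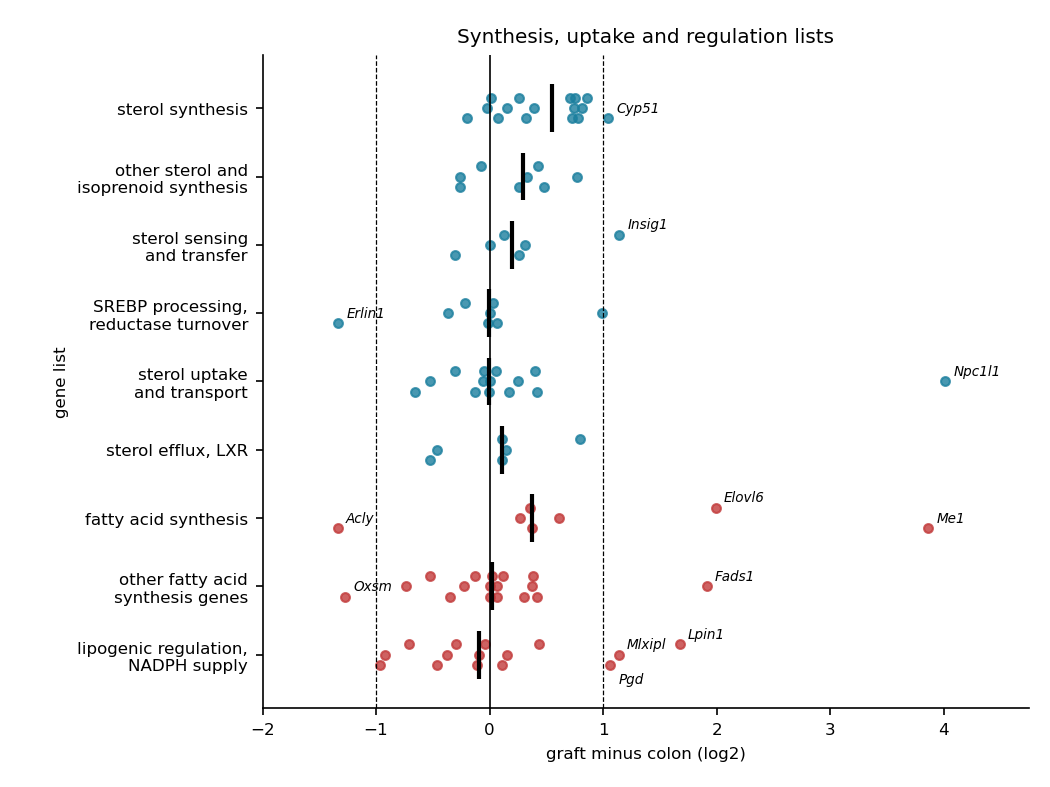
Graft minus colon differences (log2) for the 3 member lists and 6 further pathway lists, 1 point per measured gene (spread vertically for visibility only), with a black bar at each list's median, dashed lines at 2-fold and names for genes at least 2-fold apart. The sterol synthesis median, 0.55, is the rightmost of the 9 bars, whereas uptake and transport has a median of 0.00 and a single far point, Npc1l1.

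Set side by side, the medians of sterol and fatty acid synthesis enzymes, 0.55 and 0.38, differed by 0.17. The SD between probe sets refers to single genes and does not measure the error of such medians. With the second probe set where a gene has one, the difference of medians was -0.04. The lists thus could not be ordered by their medians, and what set these 2 lists apart on these arrays was spread. The SD was 0.38 over all 16 sterol enzymes and 1.63 over the 7 fatty acid enzymes. The latter includes Me1, whose fold is not determined. The wider lists did not repeat this contrast. Their SD was 1.12 over 14 genes of sterol uptake and transport, with Npc1l1 at 4.01, and 0.65 over 17 other fatty acid genes. Neither the difference of medians nor that of the spreads was tested.

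Markers of other cells were compared on the same arrays because fat and liver also carry these pathways. Of 7 measured adipocyte markers, levels ran from 4.55 to 7.41 in the graft and from 4.39 to 4.98 in the colon. The adipokine gene Adipoq was at 4.55 and 4.42, below the 20th percentile of each array, and the lipid droplet gene Plin1 was at 4.88 and 4.87. Cidec, a lipid droplet protein that enterocytes also make, was the exception at 7.41 against 4.98. Of 4 hepatocyte markers, Alb was at 4.58 and 4.55, and Ttr, which endocrine cells also make, was at 5.92 against 8.61. Skin and sebaceous markers ran from 4.48 to 5.61 in the graft and from 4.57 to 5.58 in the colon. Fibroblast and smooth muscle markers had a median difference of -0.23 over 8 genes, led by Lum at -1.76, leukocyte markers one of 0.13 over 7, led by Ptprc at 0.78, endothelial markers one of -0.09 over 5, led by Pecam1 at -0.29, and plasma cell markers one of 0.29 over 5, led by Igha at 2.71. Their part in the member differences was not tested.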

How the data were processed

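The authors deposited a table of log2 expression values for 24074 probe sets on 2 arrays, 1 of the graft and 1 of the control colon. Neither label nor header names the software, background correction or normalization. The log2 scale is inferred from the range, 4.19 to 13.46. No sequencing depth applies, and the number of arrays limits the precision. Probe sets with 1 gene symbol in the platform annotation (18904) were kept, 1330 with several and 3840 with none were left out, and the brightest stood for each gene. The Entrez identifiers of all 29 members were found in RefSeq with the same symbol. Members and lists were chosen with earlier results of these data known. No filter on low values was applied to members. Named were all measured members and, from each other pathway list, the genes at least 2-fold apart and those with the 3 largest absolute differences. Marker lists were given by a range of levels, a median difference, the gene with the largest difference, or several of these. Other named genes are said to be picked after their values were seen, or are defining markers. No test was made. Alternatives were quantile normalization, centring, averaged or second probe sets, a filter and a floor at the 20th percentile. Counting was tested on simulated data. Python 3.11.15, pandas 2.3.3 and numpy 2.4.6 were used.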

Additional observations from a re-analysis of the deposited data

How the results depend on the processing

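With 1 array per group, no replicate could be left out, and no paired analysis was possible because each group has a single sample. Under 6 alternative settings, 149 recomputed member differences moved by at most 0.33 on the log2 scale, and only Dhcr7, near 0, changed sign. The count of sterol enzymes at least 2-fold higher went from 1 to 2 with the second brightest probe set, through Fdft1 at 1.07. The sterol median ranged from 0.55 to 0.63, that of sensing and transfer from 0.19 to 0.30 and that of fatty acid synthesis from 0.38 to 0.59. Their difference, sterol minus fatty acid, ranged from -0.04 to 0.17. The count of sterol enzymes at least 1.5-fold higher was 8 in each setting, but several settings could not change it. Centring subtracted a median of 0.00, the filter removed none of the 29 members, and the floor altered Me1 alone. Averaged or second probe sets altered only the 4 members with a second probe set, of which Idi1 and Fdft1 are sterol enzymes. Many of the 149 values therefore could not move. Amplification from 4.33 ng of RNA adds an error that these arrays cannot measure.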

Other observations

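Ranked among all 17305 genes by the graft minus colon difference, Me1 stood at place 23 from the top, directly after Npc1l1 at 22 and before the lipoprotein assembly gene Mttp at 24. Elovl6 stood at place 106, close to Fads1 at 114, and Lpin1 at 151. Insig1 was at 270 and Mlxipl at 276. From the bottom, Acly stood at place 304. The 8 sterol enzymes that were at least 1.5-fold higher held places between 315 for Cyp51 and 609 for Sqle. The places describe these arrays, and those of neighbouring genes are not separated by the SD between probe sets.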
